A study of Danio rerio with 46 samples.

Results

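The genes col2a1a, matn1, acana and fmoda, which encode proteins of the cartilage matrix, are 4 of the 31475 rows of an array that measured zebrafish trunks, testes and ovaries after juvenile heat. They were picked by name for their higher signal in heat-exposed trunks. Their difference between heat-exposed and control trunks is therefore given as a description without a test, while adult gonads and the variation within each trunk group played no part in the choice. Fish were held at 36 °C, or at 28 °C as controls, from 18 to 32 days post fertilization (dpf), and both sets were then reared at 28 °C. At 37 dpf trunks of juveniles of unknown sex were taken, 8 from control and 10 from heat-exposed fish. At 90 dpf the gonads were taken, with 10 testes and 4 ovaries from each temperature. The sources used here name no strain or genotype, and the labels call the arrays of a group biological replicates.

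Cartilage is built by chondrocytes, which surround themselves with a matrix that resists pressure. Thin fibrils of type II collagen, with types IX and XI attached or buried in them, give it tensile strength, and aggrecan bound to hyaluronan holds water between the fibrils. Matrilins bridge fibrils and proteoglycans, and small leucine-rich proteoglycans such as fibromodulin coat collagen fibrils and steer their assembly. In fish the trunk holds cartilage in the fin supports and around the vertebral column, and the notochord sheath is also rich in type II collagen. Sequences of these genes are not printed here.

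Values are log2 signals of single-colour arrays, 1 row per gene, and a difference of 1 is a doubling of signal. Lower quartiles of the arrays were 6.53 to 6.70 in trunks, 6.22 to 6.44 in testes and 6.04 to 6.28 in ovaries. The table carries no call of presence, so a value near or below that quartile cannot be told from background. Array quartiles differ between trunks and adult gonads, so levels were tested only within an age, and signals of different rows were not ranked against each other. Whole pieces of tissue were measured, in which fewer cells of a type and less RNA per cell cannot be told apart. In heat-exposed trunks 2703 rows were higher and 1876 lower than in control trunks (limma, adjusted p under 0.05), which is 8.59% and 5.96% of all rows. Heat-exposed trunks 1, 2 and 10 were the highest of their group in 11 oocyte markers. Their means were 8.77, 7.51 and 7.19, where the other 7 lay between 6.22 and 6.87, so trunk 10 lay close to the rest. Control trunks 2 (8.62) and 4 (8.69) stood below the other 6 controls (11.04 to 13.11) in the same markers. Both were kept in the fits that left out heat-exposed trunks 1, 2 and 10. Heat-exposed ovaries 2 and 4 stood apart from the other ovaries, with oocyte marker means of 12.03 and 12.54, where the other 6 lay between 13.29 and 13.65 and control testes averaged 9.32. Where leaving out these heat-exposed arrays ended a call, or moved a named list gene that passed over 1.5 times, the value or count follows. For the 4 genes it is also given where a direction turned. For list genes that did not pass it is given only for some, and others moved as much.

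All 4 genes had a higher mean in heat-exposed trunks than in control trunks. The type II collagen gene col2a1a ranged from 8.77 to 11.33 in control trunks (median 9.89) and from 10.95 to 13.75 in heat-exposed trunks (median 11.94). Its mean went from 9.91 ± 0.90 (SD, n = 8) to 12.05 ± 0.89 (SD, n = 10), a difference of 2.14 or 4.41-fold, the widest of the 4. The groups overlapped: 7 of 10 heat-exposed trunks lay above the highest control, trunk 3.

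The aggrecan gene acana, which encodes the core protein that carries chondroitin sulfate chains, was dim. It ranged from 5.50 to 6.61 in controls (median 6.0) and from 5.99 to 7.96 after heat (median 7.14). The means were 6.02 ± 0.37 (SD, n = 8) and 7.16 ± 0.60 (SD, n = 10), a difference of 1.14. The control mean thus lay under the lower quartile of every trunk array, and 9 of 10 heat-exposed trunks exceeded the highest control, all but trunk 8.

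The matrilin 1 gene matn1, a marker of mature cartilage, ranged from 10.16 to 13.38 in controls (median 12.18) and from 12.68 to 14.64 after heat (median 13.46). Its mean was 12.09 ± 0.98 (SD, n = 8) in controls and 13.66 ± 0.68 (SD, n = 10) after heat, a 2.96-fold difference. The groups overlapped: 5 of 10 heat-exposed trunks lay above control trunk 1, the highest control, and 6 of 8 controls lay below the lowest heat-exposed trunk.

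The fibromodulin gene fmoda, expressed in cartilage, tendon and other dense connective tissue, varied least among controls, from 11.38 to 12.25 (median 11.79). After heat it ranged from 12.13 to 13.76 (median 13.23). The means were 11.80 ± 0.31 (SD, n = 8) and 13.17 ± 0.56 (SD, n = 10), or 2.58-fold, and all heat-exposed trunks but number 6 exceeded every control. For 0 of the 4 genes did every heat-exposed trunk lie above every control, a pattern seen in 0.616% of all rows. Without heat-exposed trunks 1, 2 and 10 the differences were 2.24 (col2a1a), 1.11 (acana), 1.46 (matn1) and 1.23 (fmoda).

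**Figure D1:**
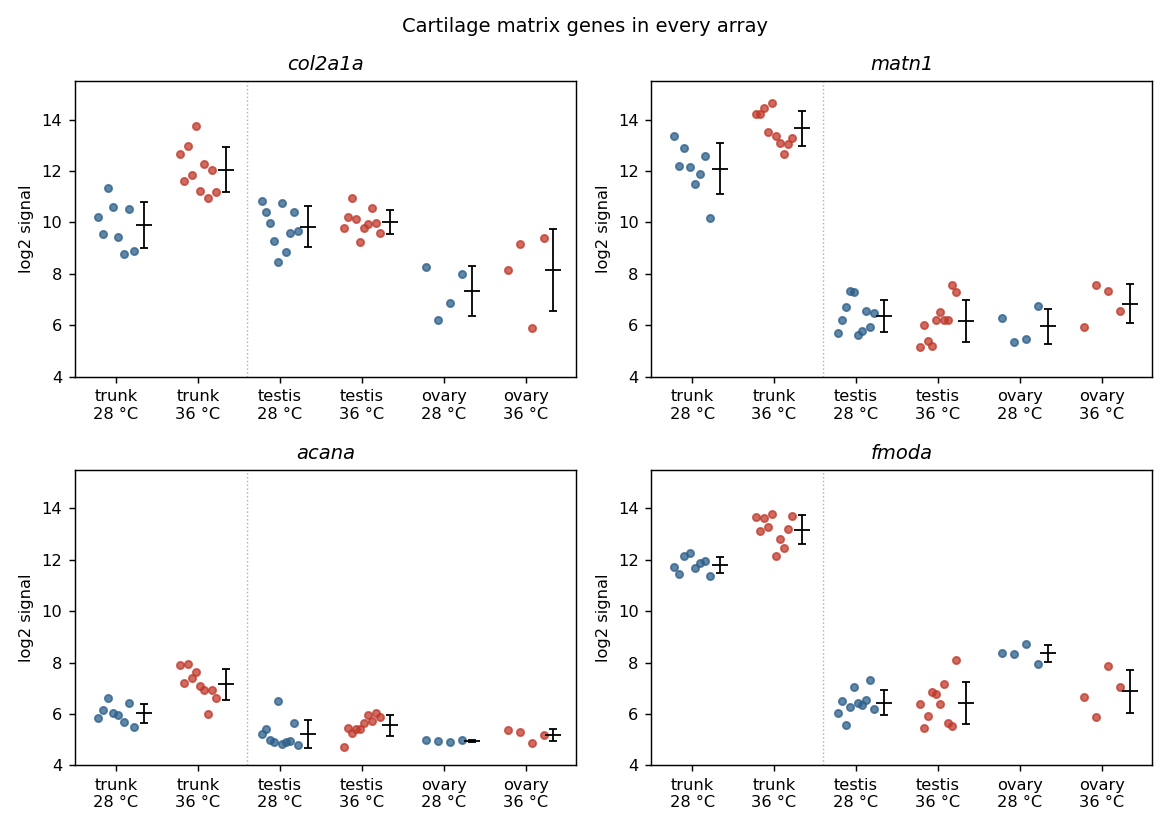
Log2 signal of the 4 cartilage matrix genes in each array (points; blue, 28 °C; red, 36 °C), with group means and SD beside them; the dotted line parts juvenile trunks from adult gonads. In trunks the red points sit mostly above the blue ones, while matn1 and fmoda are several log2 units dimmer in gonads and col2a1a in testes reaches the level of control trunks.

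Within each trunk group the 4 genes tended to be high or low in the same fish, though with all trunks no pair with fmoda passed the test below. Averaged over the 4 genes, and relative to the mean of its own group, heat-exposed trunk 5 stood highest (0.94), followed by trunks 3 (0.74) and 1 (0.60), and trunk 8 stood lowest (−0.99). Trunk 5 held the highest col2a1a, matn1 and fmoda of all trunks, and trunk 8 the lowest col2a1a, matn1 and acana of the heat-exposed ones. Among controls trunk 3 was highest (0.79) and trunk 8 lowest (−0.97), while trunks 2 (−0.12) and 4 (0.31), the controls low in oocyte markers, lay between them.

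Correlations were computed for the 6 pairs of genes in both groups, 12 in all. In heat-exposed trunks Pearson's r ran from 0.58 to 0.86 and Spearman's rho from 0.48 to 0.87, and 3 pairs passed (two-sided permutation test, adjusted over the 12). The closest pair was matn1 with acana (r = 0.86, permutation p = 0.00107, adjusted p = 0.0128; rho = 0.87, p = 0.00225, adjusted p = 0.027; n = 10), and r was 0.82 without the 2 trunks farthest from the median of matn1. The next were col2a1a with acana (r = 0.78, permutation p = 0.00818, adjusted p = 0.0373; rho = 0.77, p = 0.0126, adjusted p = 0.0755) and col2a1a with matn1 (r = 0.75, permutation p = 0.014, adjusted p = 0.0419; rho = 0.65, p = 0.0488, adjusted p = 0.138). Without the 2 farthest trunks these came to 0.75 and 0.45, so the second rests in part on those trunks. In control trunks r ran from 0.53 to 0.84, rho from 0.45 to 0.81, and 1 pair passed, col2a1a with acana (r = 0.84, exact permutation p = 0.00933, adjusted p = 0.0373; rho = 0.81, exact p = 0.0218, adjusted p = 0.0871; n = 8; r = 0.68 without the 2 farthest). Between 0 and 7 of the 12 pairs passed when single trunks were left out, with 0 passing without heat-exposed trunk 3 or 8, so the number of pairs is not firm while every r over all arrays of a group was positive. Leaving out heat-exposed trunks 1, 2 and 10 left 3 of 12 past the threshold. With all trunks no pair with fmoda passed in either group (permutation test of r, adjusted p = 0.0728 to 0.178). Without the 2 farthest trunks r of the pairs with fmoda ran from 0.10 to 0.88 in controls and from 0.35 to 0.47 after heat. The permutation test asks only whether the signals of a pair vary independently. The share of pairs of other rows that would pass was not computed. These counts therefore do not show that the genes vary together more closely than other rows do.

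Marker lists of other tissues in the same trunks moved to different degrees. Counts for these and later lists in trunks stand beside 8.59% of all rows higher and 5.96% lower. Of 16 neural markers 10 rose and 1 fell, with a median log2 difference of 0.94 where the median over all rows was 0.04. Averaged over the list, control trunks stood at 10.66 ± 0.34 (SD, n = 8; 10.16 to 11.15) and heat-exposed trunks at 11.38 ± 0.46 (SD, n = 10; 10.84 to 12.16). The neural mean was lowest in heat-exposed trunks 8 (10.84), 6 (10.86) and 7 (10.94) and highest in trunks 1 (12.16), 3 (11.85) and 10 (11.83). Trunk 8 was thus low, and trunks 1 and 3 high, in both neural and cartilage matrix signal. Trunk 10 was high in neural and fmoda signal (13.68) but not in col2a1a signal (11.19). Trunk 5, highest over the 4 genes (0.94), was not among the trunks highest in neural mean. Without heat-exposed trunks 1, 2 and 10, 4 neural markers rose and 1 fell, and the median was 0.72. The part of nervous tissue in the cartilage signal was not tested.

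Skeletal muscle markers averaged 13.44 in control and 13.65 in heat-exposed trunks, and 3 of 16 rose. Of 14 epidermis markers 3 rose (2 without heat-exposed trunks 1, 2 and 10), and of 14 liver markers 1 fell. All 11 oocyte markers fell (median −4.73), and their mean was 11.52 in control and 6.87 in heat-exposed trunks. Without heat-exposed trunks 1, 2 and 10 all 11 again fell, with a median of −5.31, so leaving these out widened the oocyte difference. The part of oocyte content in the cartilage signal was not tested. Of 16 eye and ear markers 2 rose, 12.5% beside 8.59% of all rows, and the list median was −0.18. The 2 were otomp (1.73, adjusted p = 0.0296) and stm (0.74, adjusted p = 0.00692). Both encode proteins of the otolith, the calcified stone of the inner ear. The otomp call was lost without heat-exposed trunks 1, 2 and 10 (1.62, adjusted p = 0.0658), where 1 gene of the list rose. The photoreceptor gene rho (0.17) and the lens crystallin gene cryaa (−0.21) of that list did not pass. Without those trunks rho was −0.06, and the ear marker gene oc90 did not pass (−0.09, adjusted p = 0.841).

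**Figure D2:**
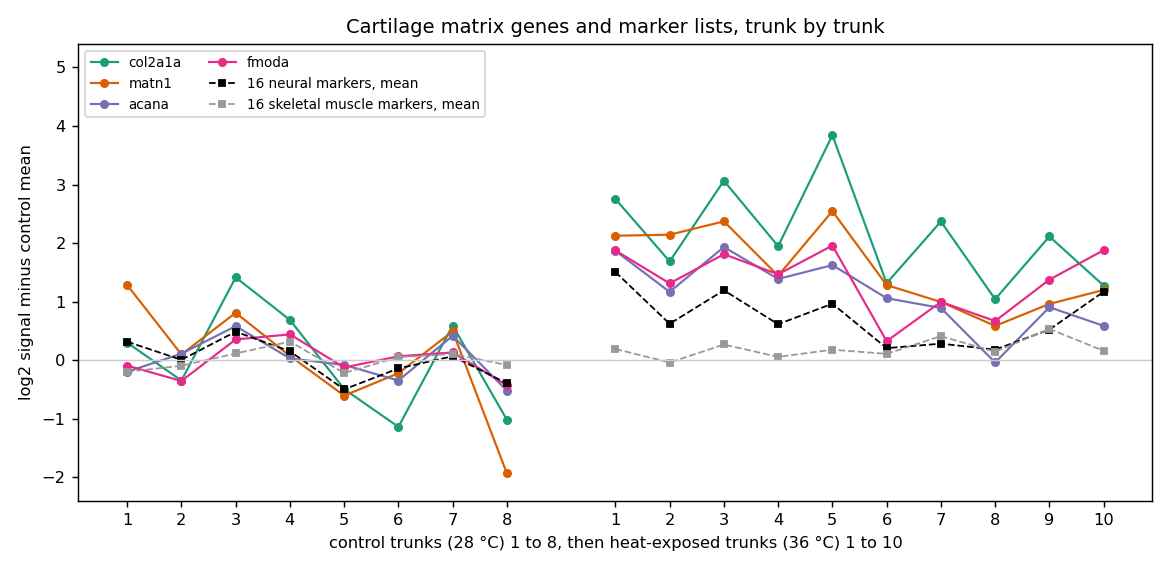
Log2 signal minus the control mean in each trunk, for the 4 genes (coloured lines) and for the mean of 16 neural (black dashes) and 16 skeletal muscle markers (grey dashes). The coloured lines peak together in heat-exposed trunks 3 and 5 and dip in trunk 8; the neural line shares the dip, and the muscle line stays nearer to 0 than the gene lines in most heat-exposed trunks.

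To see whether other cartilage genes shared the pattern, 34 further genes were read from lists of cartilage collagens, cartilage proteoglycans and matrix proteins, and small leucine-rich proteoglycans. Of these 10 rose and 2 fell (limma, adjusted p under 0.05), 29.4% and 5.88%, beside 8.59% and 5.96% of all rows. Their median difference was 0.25. Leaving out single trunks gave 7 to 12 that rose and 1 to 3 that fell, and without heat-exposed trunks 1, 2 and 10 there were 11 and 0, not all of them the same genes. Members of 1 family did not all move the same way.

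Among the collagens, 2 of 8 rose and 1 fell. Type IX collagen decorates type II fibrils, and its chain col9a3 rose 2.48-fold, from 9.42 ± 0.61 in controls to 10.73 ± 0.61 after heat (adjusted p = 0.00404). The chain col9a2 rose by 0.68 (adjusted p = 0.0259), from control signals of 5.97 to 7.32 that lay around the lower quartile of trunk arrays. The type XI chain col11a1b fell by 1.18 (adjusted p = 0.0303), but did not pass without heat-exposed trunks 1, 2 and 10 (−0.75, adjusted p = 0.149), where col11a2 did (0.72, adjusted p = 0.0206). With all trunks its paralogue col11a1a had a difference of 0.53 (adjusted p = 0.0501). The second type II gene, col2a1b, differed by 0.19 (adjusted p = 0.387), where col2a1a differed by 2.14. As paralogues of high identity may share hybridization, values for 1 collagen are uncertain by its relatives.

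Of 14 proteoglycans and other matrix proteins, 6 rose and 0 fell. The hyaluronan link protein gene hapln3 ranged from 7.71 to 8.38 in controls and from 8.78 to 10.68 after heat, with no overlap, and rose 2.64-fold (adjusted p = 0.000302). The matrilin genes matn3b (1.62, adjusted p = 0.0158), matn3a (1.11, adjusted p = 0.00825) and matn4 (0.70, adjusted p = 0.0191) rose, as did hapln1b (0.48, adjusted p = 0.0346). Control signals of hapln1b (5.68 to 6.60) lay near or below the lower quartile of trunk arrays. Heat-exposed trunk 10 held the highest matn3b (12.16, against 7.93 to 10.39 in the other 9), and without heat-exposed trunks 1, 2 and 10 the matn3b difference was 1.05 (adjusted p = 0.0229). Of the pair that encodes a Gla-rich protein secreted by chondrocytes, ucmab rose 2.78-fold (7.17 ± 0.66 to 8.64 ± 0.45, adjusted p = 0.000881). Its paralogue ucmaa stood at 14.33 ± 0.19 in control and 14.27 ± 0.31 in heat-exposed trunks (adjusted p = 0.828). The ucmaa difference was 0.12 (adjusted p = 0.543) without heat-exposed trunks 1, 2 and 10. Aggrecan's relatives among the hyaluronan-binding proteoglycans, the versican genes vcana (−0.19, adjusted p = 0.495) and vcanb (−0.04, adjusted p = 0.876), did not pass.

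Of 12 small leucine-rich proteoglycans 2 rose and 1 fell. The gene epyc, whose product epiphycan belongs to growth cartilage in mammals, ranged from 6.84 to 7.79 in controls and from 7.90 to 9.51 after heat, without overlap, and rose 2.52-fold (adjusted p = 0.000417). The fibromodulin paralogue fmodb rose 1.58-fold (adjusted p = 0.0324). The biglycan gene bgna fell by 1.03 (adjusted p = 0.0179). Neither fmodb (0.51, adjusted p = 0.134) nor bgna (−0.75, adjusted p = 0.0808) passed without heat-exposed trunks 1, 2 and 10, while the asporin gene aspn did (0.57, adjusted p = 0.0308). The lumican gene lum (−1.03, adjusted p = 0.0647), of cornea and skin, did not pass. Its difference was −0.53 (adjusted p = 0.142) without those trunks. The decorin gene dcn (0.13, adjusted p = 0.4), of general connective tissue, did not pass either, and was 0.21 (adjusted p = 0.164) without them.

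**Figure D3:**
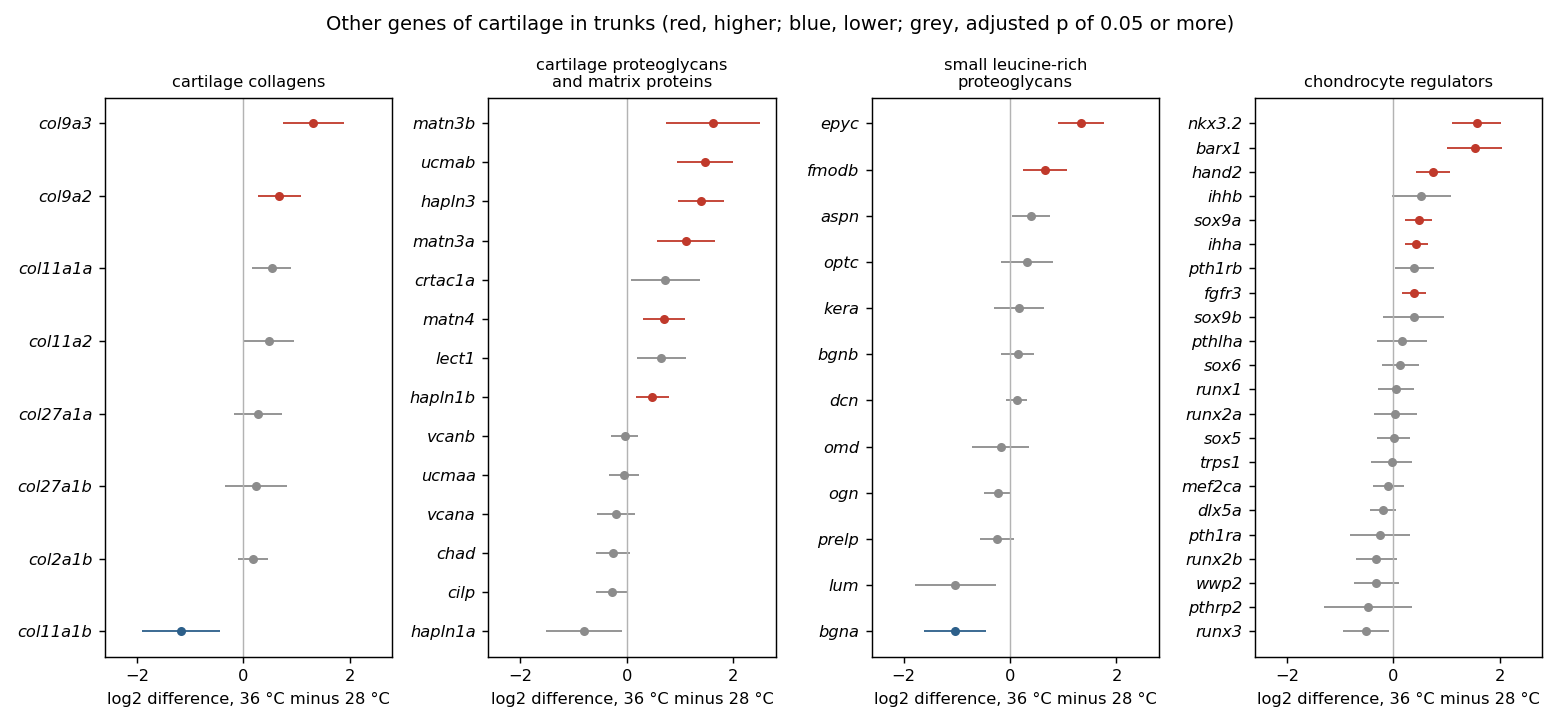
Log2 difference between heat-exposed and control trunks with its 95% confidence interval, for the genes of 3 cartilage matrix lists and 1 list of chondrocyte regulators; the 4 genes chosen on this difference are left out. Red points passed as higher, blue as lower and grey did not pass; nkx3.2, barx1 and matn3b lie farthest to the right, with matn3b at 1.62 here and at 1.05 without heat-exposed trunks 1, 2 and 10.

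Of 22 genes that regulate chondrocytes 6 rose and 0 fell, 27.3% and 0%, beside 8.59% and 5.96% of all rows. The median of the list was 0.09, where that of all rows was 0.04. The homeobox genes nkx3.2 and barx1, which pattern jaw cartilage and in mice also act in the gut wall, rose 2.96-fold (adjusted p = 0.000167) and 2.88-fold (adjusted p = 0.000608). In control trunks nkx3.2 ranged from 6.67 to 7.98 (median 7.16), and in heat-exposed trunks from 7.75 to 9.40 (median 8.84). Smaller rises were seen for hand2 (0.74, adjusted p = 0.00366), a factor of the ventral jaw, heart and fin, and for sox9a (0.48), the main activator of type II collagen transcription. The ligand gene ihha (0.43, adjusted p = 0.0115) of maturing chondrocytes and the growth-restraining receptor gene fgfr3 (0.39, adjusted p = 0.0212) also rose. Partners of sox9a in the chondrocyte programme, sox5 (0.00, adjusted p = 0.996) and sox6 (0.13, adjusted p = 0.617), did not pass. Without heat-exposed trunks 1, 2 and 10, 5 of the 22 rose, and fgfr3 did not pass (adjusted p = 0.0611). There sox9a passed only just (0.45, adjusted p = 0.0495). Its paralogue sox9b did not pass with all trunks or without those trunks (0.30, adjusted p = 0.58 without).

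Genes of bone and of hypertrophic cartilage showed no common direction. Of 14, 1 rose and 1 fell, with a median of −0.07. The type X collagen gene col10a1 (−0.33, adjusted p = 0.256), the osteoblast factor gene sp7 (−0.05, adjusted p = 0.931) and the type I collagen gene col1a1a (0.00, adjusted p = 0.993) did not pass. Of the osteoclast genes, the cathepsin K gene ctsk rose by 0.45 (adjusted p = 0.00754) and the acid phosphatase gene acp5a fell by 1.54 (adjusted p = 0.034). Of 10 tendon and joint genes only tnmd, of tendon, passed, and it fell by 0.85 (adjusted p = 0.0258). Without heat-exposed trunks 1, 2 and 10 no gene fell in either list. There 2 bone genes rose, spp1 (0.84, adjusted p = 0.0205) and ctsk (0.44, adjusted p = 0.0197). There col10a1 (−0.08) and sp7 (0.06) again did not pass.

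The machinery that makes the matrix showed no common direction. Of 23 genes of proteoglycan and collagen synthesis 1 rose and 2 fell, with a median of −0.07. The lysyl hydroxylase gene plod2 (0.62, adjusted p = 0.0091) rose. The sulfate transporter gene slc26a2 fell by 1.09 (adjusted p = 0.0105) and the UDP-xylose synthase gene uxs1 fell by 0.58 (adjusted p = 0.00442). Of 9 matrix turnover genes 1 passed, adamts9, a protease of versican and aggrecan, which fell by 0.94 (adjusted p = 0.00541). The slc26a2 call was lost without heat-exposed trunks 1, 2 and 10 (−0.96, adjusted p = 0.055), where the collagenase gene mmp13b of the turnover list rose (adjusted p = 0.0145). Of 7 notochord genes 3 rose: ntla, the zebrafish brachyury gene (1.09, adjusted p = 0.00846), shha (1.06, adjusted p = 0.00719) and the connective tissue growth factor gene ctgfa (0.91, adjusted p = 0.000849). The mean of that list was 9.20 in heat-exposed trunk 10 and between 8.07 and 8.43 in the other 9, where controls ranged from 7.83 to 8.34. Without heat-exposed trunks 1, 2 and 10, 3 notochord genes rose and 1 fell, flh (−1.21, adjusted p = 0.017). The part of notochord in the col2a1a signal was not tested.

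Genes whose pattern was most like that of the 4 were sought over the 18 trunks, by Pearson's r between deviations from group means and the mean deviation of the 4, among 14194 other rows with a gene symbol. Deviations were not scaled, so col2a1a and matn1, with a wider spread than acana and fmoda in both groups, weighed more in that mean. The 10 closest were itga3b (r = 0.89), il17rd (0.87), epyc (0.86), calb2a (0.85), ascl1b (0.84), tuba2 (0.84), flot1b (0.84), col11a1a (0.84), and1 (0.83) and tlx2 (0.83). Their r ran from 0.84 to 0.93 without heat-exposed trunks 1, 2 and 10. These r are descriptions, as the rows were picked for them and all rows share the same arrays. Cartilage list genes epyc and col11a1a stood among the 10, at ranks 3 and 8. Next came col9a3 at rank 22 (r = 0.79), ucmab at 79 (0.72) and col9a2 at 87 (0.71). At the other end stood the small leucine-rich proteoglycan genes lum (r = −0.43) and ogn (−0.62), over both trunk groups pooled. Signal of lum varied little among control trunks (13.23 to 13.73) and more among heat-exposed ones (10.35 to 13.64). These r were not computed for each group alone. For hapln3 (0.09) and matn3b (−0.03), both higher after heat, r lay near 0. Among the 10 were also the proneural factor gene ascl1b, with means of 6.13 in control and 8.76 in heat-exposed trunks (adjusted p = 0.000434), and and1, which encodes an actinodin of fin folds (12.95 and 13.60, adjusted p = 0.124).

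In adult testes the cartilage matrix genes were compared by a test that the choice did not touch. The question was whether testes of fish heated as juveniles carry more cartilage signal at 90 dpf. Of the 4 genes 0 passed in limma, beside 0.0635% of all rows called (0.054% higher and 0.00953% lower), and 0 of 4 had an unadjusted p under 0.05, beside 11.7% of all rows. Testis means of matn1, fmoda and acana lay near or below the lower quartile of testis arrays (6.22 to 6.44). Signal there cannot be told from background, so the count speaks mainly for col2a1a. Signal of col2a1a ranged from 8.48 to 10.82 in control testes (median 9.82) and from 9.22 to 10.94 in heat-exposed ones (median 9.96). The difference was 0.19 (95% CI −0.40 to 0.77, adjusted p = 0.844), and the groups overlapped widely.

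The matn1 signal ranged from 5.62 to 7.33 in control and from 5.17 to 7.56 in heat-exposed testes, a difference of −0.18 (95% CI −0.82 to 0.46, adjusted p = 0.867). For fmoda the means were 6.43 ± 0.49 and 6.43 ± 0.83 (SD, n = 10 each; 95% CI of the difference −0.61 to 0.60, adjusted p = 0.997). For acana they were 5.22 ± 0.53 and 5.56 ± 0.39 (difference 0.34, 95% CI −0.09 to 0.76, adjusted p = 0.557), both under the lower quartile of the arrays. Of the 34 further cartilage matrix genes 0 passed in limma, and 0 had an unadjusted p under 0.05, where 11.7% of all rows did.

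In adult ovaries the means of 3 genes were higher after heat and that of fmoda was lower, and 0 of 4 passed in limma, where 0% of all rows were called. The fmoda signal was 8.39, 8.35, 8.74 and 7.96 in controls 1 to 4 and 6.68, 5.88, 7.87 and 7.07 in heat-exposed ovaries 1 to 4. Every heat-exposed ovary lay below every control, as in 3.37% of all rows. The difference was −1.48 (95% CI −2.45 to −0.51, limma unadjusted p = 0.00744, adjusted p = 0.434), and −1.08 (adjusted p = 0.879) without heat-exposed ovaries 2 and 4. With all 46 arrays in 1 model the same difference had an adjusted p of 0.0131 in limma; that model takes its spread mostly from other tissues.

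Controls 1 to 4 had col2a1a signals of 8.28, 6.20, 6.86 and 8.01, and heat-exposed ovaries of 8.14, 9.15, 5.90 and 9.40. Ovaries 2 and 4, which stood apart in oocyte markers, lay above the controls, and ovaries 1 and 3 did not. The difference of 0.81 (95% CI −1.02 to 2.64, adjusted p = 0.599) turned to −0.31 (adjusted p = 0.993) without them. The same arrays were high in ucmaa, which read 14.01 and 14.36 in heat-exposed ovaries 2 and 4 against 10.08 and 10.61 in 1 and 3, where control testes averaged 13.44.

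The matn1 signal was 6.29, 5.36, 5.45 and 6.76 in control and 5.95, 7.57, 7.32 and 6.54 in heat-exposed ovaries, overlapping groups with a difference of 0.88 (95% CI −0.19 to 1.95, adjusted p = 0.434). Its control mean of 5.96 lay under the lower quartile of ovary arrays. Signals of acana lay between 4.88 and 5.38 in all 8 ovaries, under the lower quartile (difference 0.23, adjusted p = 0.615). Of the 34 further genes 0 passed in limma and 4 had an unadjusted p under 0.05 (col11a1a, chad, vcanb and bgna, all higher, adjusted p = 0.434 each). This is near the 10.6% of all rows with such a p, and without heat-exposed ovaries 2 and 4 it was 0 of 34. In those ovaries bgna read 12.74 and 13.76, against 5.13 and 8.45 in heat-exposed ovaries 1 and 3. The heat effect was not shown to differ between testis and ovary for any of the 4 genes, with differences of 1.48 for fmoda (adjusted p = 0.124), −1.06 for matn1 (0.292), −0.62 for col2a1a (0.644) and 0.11 for acana (0.899), where 1.21% of all rows passed. Without heat-exposed ovaries 2 and 4 the difference turned to 0.50 for col2a1a and was 0.16 for acana, and neither passed. Without heat-exposed ovary 3 the difference for fmoda passed (1.81, adjusted p = 0.0293). In that fit 2002 rows of 31475 were called higher and 2396 lower, against 153 and 227 with all arrays. Heat-exposed ovaries 2 and 4 remained in it.

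**Figure D4:**
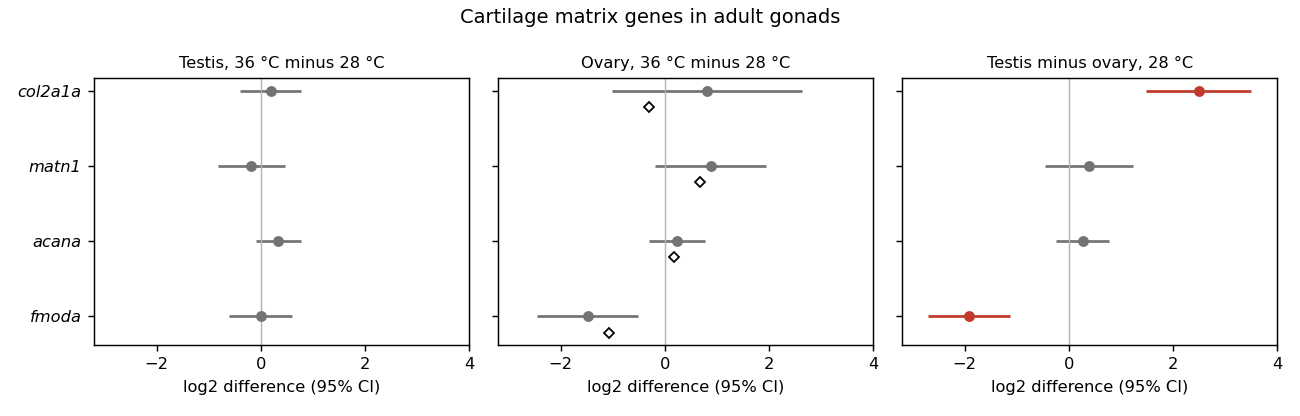
Log2 differences of the 4 genes in adult gonads with 95% confidence intervals: heat against control in testes (n = 10 each), in ovaries (n = 4 each), and testis against ovary in control fish. Red marks an adjusted p under 0.05, reached by col2a1a and fmoda between the gonads; open diamonds give the ovary difference without heat-exposed ovaries 2 and 4, where col2a1a changes sign.

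The gonads themselves differed in 2 of the 4 genes in control fish, in opposite directions. Signal of col2a1a was 9.83 ± 0.79 (SD, n = 10) in testes and 7.34 ± 0.98 (SD, n = 4) in ovaries, 5.62-fold higher in testis (limma adjusted p = 9.57e-05), and every control testis lay above every control ovary. Signal of fmoda was 6.43 ± 0.49 in testes and 8.36 ± 0.32 in ovaries, higher in ovary (adjusted p = 0.000101), again without overlap. The testis mean lay near the lower quartile of testis arrays (6.22 to 6.44), so no fold is given. The genes matn1 (0.39, 95% CI −0.45 to 1.24, adjusted p = 0.43) and acana (0.26, 95% CI −0.25 to 0.77, adjusted p = 0.384) did not pass. Their means lay near or below the lower quartile in both gonads. As 57.8% of all rows differ between the gonads, 2 of 4 is close to that share. The share of all rows without overlap between control testes and ovaries was not computed. The separation of col2a1a and fmoda therefore cannot be weighed against it.

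Of the 34 further genes 16 were higher in testis and 2 in ovary, beside 28.3% and 29.6% of all rows. Among the former were col11a1a (12.1-fold), ucmaa (9.26-fold), dcn (8.34-fold) and bgna (adjusted p = 0.0105), and the latter were bgnb (−2.89) and col9a2 (−0.60). The mean of bgna was 9.76 in control testes and 5.83 in control ovaries, the latter under the lower quartile of every ovary array, so no fold is given. Signals of col9a2 in control testes (5.48 to 6.39) lay near or below the lower quartile of testis arrays. Centring arrays on their medians moved the median difference of all rows from 0.01 to −0.17, a shift far smaller than the differences of col2a1a and fmoda.

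In order of mean level, col2a1a was highest in heat-exposed trunks, then in heat-exposed testes (10.02), control trunks (9.91) and control testes (9.83), which lay within 1 SD of each other, and last in heat-exposed (8.15) and control ovaries (7.34). For matn1 both trunk groups stood above the gonads (13.66 and 12.09), and the 4 gonad groups between 5.96 and 6.84, each within 1 SD of the next and close to the lower quartile. For fmoda control ovaries (8.36) followed the trunks, with heat-exposed ovaries (6.88) and both testis groups (6.43) below. Both testis means lay near the lower quartile of their arrays. For acana the mean of heat-exposed trunks (7.16) was above the lower quartile of its arrays, and the other 5 group means, from 4.96 to 6.02, were below it and are not ordered. Orders across ages are descriptions, since levels were not tested between trunks and gonads.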

How the data were processed

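RNA of 46 samples was amplified and hybridized to single-colour NimbleGen arrays, per the labels' protocols. The deposited values are log2 signals made by the authors with RMA, per the submitters' processing notes; the log base was taken from the range of values, and the sources used here do not name the version, the array annotation or which arrays RMA treated as 1 set. All rows entered limma 3.58.1 (lmFit, eBayes; R 4.3.3), each heat comparison on its own groups and the gonad contrasts in 1 fit of all adult arrays, two-sided, with Benjamini-Hochberg adjustment over 31475 rows and a threshold of 0.05. Correlations used permutation tests (100000 resamples, exact under 10 arrays). The scripts were tested on simulated data. Genes and lists were chosen with earlier results of these data known. The text names the 4 genes, list genes that passed in trunks (up to 6 a list) and any gene of the cartilage matrix lists. It also names the 10 rows nearest in pattern. The genes rho, cryaa, oc90, sox5, sox6, sox9b, col10a1, sp7, spp1, col1a1a, mmp13b and flh were named after their values were seen. List genes were matched to rows by name or by an older symbol in a RefSeq table of GRCz12tu, used for names only. Slide, scan and batch labels were not among the sources, so no batch was tested. Alternatives covered normalization, filtering, variance model, array weights and left-out arrays.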

Additional observations from a re-analysis of the deposited data

Results flagged for a closer look

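Of 24 combinations of gene and group, 1 held an array far from the rest, about what chance gives at 1 in 20 groups. The acana signal of control testis 5 was 6.52, where the other control testes lay between 4.80 and 5.64. The same array had the highest mean among control testes in the small leucine-rich proteoglycans (9.09, others 6.69 to 7.86) and in the cartilage proteoglycans and matrix proteins (8.86, others 7.55 to 8.08), with lum at 11.86 and bgna at 14.53. Tendon and joint markers (9.07) were also highest there among control testes, and their part in the acana signal was not tested. Without control testis 5 the acana difference between heat-exposed and control testes was 0.48 (limma adjusted p = 0.263).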

How the results depend on the processing

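In trunks the differences of the 4 genes kept their sign under every alternative run; leaving out single arrays gave 1.95 to 2.34 (col2a1a), 1.05 to 1.27 (acana), 1.29 to 1.75 (matn1) and 1.30 to 1.48 (fmoda). Rows called in trunks fell from 4579 to 2863 without heat-exposed trunks 1, 2 and 10 (3293 to 4919 without single trunks), and the cartilage matrix list genes that fell went from 2 to 0 there and to 0 with all 46 arrays in 1 model (1 to 3 without single trunks). Of 12 member correlations 4 passed, and 0 to 7 without single trunks. In testes 20 rows were called (17 higher, 3 lower): 8 (8 and 0) after quantile normalization again, 7 (7 and 0) with arrays centred on the median, 54 with array weights, 102 with all arrays in 1 model, 3 with the replicate block, and 1 to 57 without single arrays. In ovaries 0 rows were called (3334 at an unadjusted p under 0.05): 4 with array weights, 4869 with all arrays in 1 model, 8 without heat-exposed ovaries 2 and 4, and 0 to 5 without single arrays. The difference of heat effects between gonads was called for 380 rows, for 20 with array weights, 2508 with all arrays, 0 with the replicate block (3238 at an unadjusted p under 0.05), 36 without heat-exposed ovaries 2 and 4, and 48 to 4817 without single arrays.

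Signs turned for fmoda in testes (−0.19 to 0.10 without single arrays), for col2a1a without heat-exposed ovaries 2 and 4 (−0.31 in ovaries; 0.50 for the difference between gonads) and for acana in the difference between gonads with the replicate block (−0.16); none of these passed a test. The filter on dim rows removed acana from all adult fits and matn1 from those with testes, so neither has a value there. Same-numbered arrays are different fish, and the labels do not pair them. Their deviations correlated with r of −0.08 to 0.13 in trunks, −0.04 to 0.15 in testes and 0.02 to 0.15 in ovaries. Control arrays correlated best with the heat-exposed array of their own number in 2 of 8 trunks, 4 of 10 testes and 3 of 4 ovaries. Whether the replicate block fits better than the main model was not tested. The cause of these changes was not tested. Alternatives for list counts, correlations and nearest rows were added after the data were seen. The number of arrays limits precision, most in ovaries.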
